A study of Homo sapiens with 9 samples.

Results

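Genes of homologous recombination and of the Fanconi anaemia pathway were followed in H69, an established line of human small cell lung cancer, after exposure to PIK75 or TGX221, inhibitors of phosphoinositide 3-kinase. The list names 36 genes, of which 32 are measured here by a probe set that carries only that gene's symbol, out of 19775 genes in all, and the other 4 are not analysed here. A probe set is the group of short probes on an Affymetrix array that reads 1 transcript region, and each gene is represented by its brightest probe set over all 9 arrays. Control cells received the vehicle DMSO, and the treated cells PIK75 (100 nM) or TGX221 (1 mM, as labelled), each for 24 h in complete medium and with 3 arrays per group. The labels give the treatment of the control arrays as none, while the treatment protocol names DMSO. The replicate numbers are 1, 3 and 5 for control and PIK75 and 2, 3 and 5 for TGX221. The labelled doses of the compounds differ widely, and no file bears on whether the TGX221 unit is right. All groups are the same established line, and nothing states whether the arrays of a group come from separate cultures, so the p-values measure a spread between arrays that may be technical. With 3 arrays against 3, an exact permutation test of a single gene cannot go below p = 0.1, so calls rest on limma, which shares its estimate of spread over all genes. Values are on a log2 scale, and both compounds are compared with the same control arrays.

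Homologous recombination repairs a broken chromosome by copying the intact sister. Nucleases first trim the ends to single strands, mediators around BRCA1 and PALB2 then load a recombinase onto the strand, and helicases and nucleases finally separate the joined molecules. The Fanconi pathway deals with DNA strands that are crosslinked to each other: a nuclear core complex attaches ubiquitin to a clamp that contains FANCI, which brings in nucleases to cut the crosslink out, and recombination completes the repair. Many of these genes are expressed mainly while cells copy their DNA, and small cell lung cancer is known for rapid division and high replication stress.

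With PIK75, 17 of the 32 genes were lower and 5 were higher than in the control (limma, adjusted p below 0.05 over all genes), against 25.2% lower and 35.2% higher among all genes (60.4% in either direction). The share of lower calls, 53.1%, was thus above that of all genes, and the share of higher calls, 15.6%, was below it. Brightness moves with this difference. Among the 9888 genes at or above the median brightness, 41.9% were lower and 32% higher, and of the 26 repair genes that are this bright 16 were lower and 5 higher. The median log2 difference of the 32 genes was -0.19, against 0.09 over all genes. Only falls reached a factor of 1.5, in 6 genes (10.4% of all genes fell by that much): RAD51AP1, NBN, BRIP1, BRCA1, MRE11 and FANCM. The PIK75 values of 20 genes lay below all control values and those of 5 above them, where 26.4% and 38.3% of all genes did. With TGX221 none of the 32 genes passed the test (1.21% of all genes did).

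**Figure D1:**
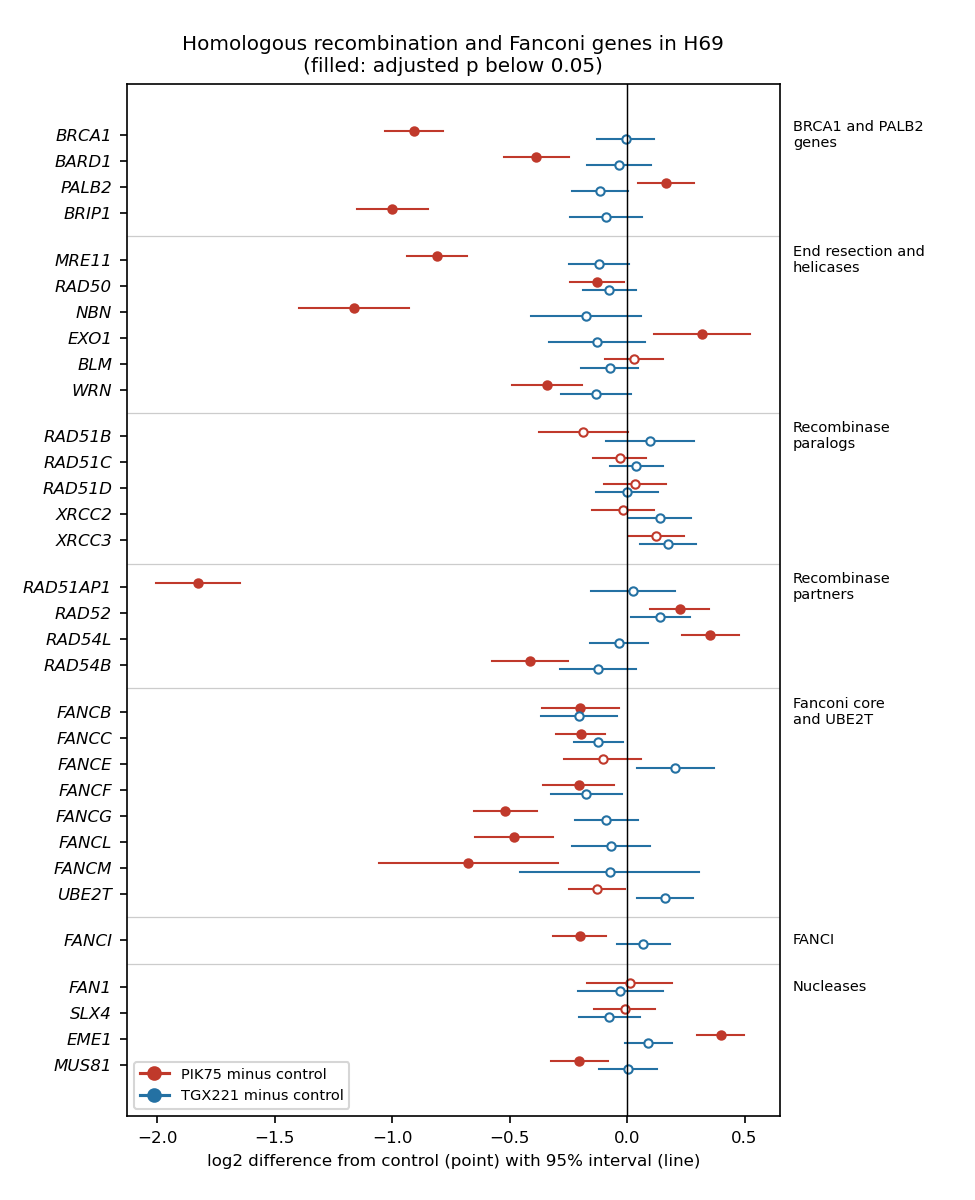
Log2 difference from control of each of the 32 genes, ordered by role, for PIK75 (red) and TGX221 (blue), with 95% intervals from limma over 3 arrays per group. Filled points passed at an adjusted p below 0.05. RAD51AP1 lies farthest left at -1.83, the recombinase paralogs sit around 0, and no TGX221 point is filled.

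The scale on which these values rest was checked with added RNA. RMA had made the arrays alike in distribution before the probes were summarised, with array medians between 8.20 and 8.23, which hides any change that most genes share. The spread of the middle genes (interquartile range) still differed. It was 2.78 to 2.825 in the control, 2.71 to 2.77 with TGX221 and 2.48 to 2.57 with PIK75. The part of this narrower spread in the directions reported was not tested. The 18 hybridization spike probe sets, added after labelling, read 0.35 higher on the PIK75 arrays than on the control arrays, and the 24 poly-A spike probe sets, added before labelling, 0.08 higher. Relative to the hybridization spikes 28 of the 32 genes were lower with PIK75 and 0 higher by limma (28 and 0 at an unadjusted p under 0.05, and 66.3% and 1.95% of all genes passing), and the median of all genes was -0.26 instead of 0.09. The actin 3' minus 5' value, which grows as RNA breaks down, was 0.24 to 0.44 in the control and 0.26 to 0.42 with TGX221. With PIK75 it was 0.47, 0.54 and 1.13, the last on the array of replicate 5. The same value for GAPDH differed less. It was -0.052 to 0.013 in the control, 0.003 to 0.018 with TGX221 and -0.002 to 0.078 with PIK75, highest on replicate 5. The part of these values in the results was not tested. Without PIK75 replicate 5, 15 genes were lower and 5 higher (23.8% and 30% of all genes). All 11 measured neuroendocrine markers of this tumour type had a control mean of at least 6, from 9.18 to 13.22. Of 12 markers of leukocytes, fibroblasts, endothelium and squamous epithelium, 11 also reached 6, with COL1A1 the highest at 9.30. A log2 value of 6 is used here only as a mark for dim signal, since these values carry no call of presence, and none of the 32 repair genes was below it in every group. With PIK75 7 neuroendocrine markers were lower and 1 higher, where 25.2% of all genes were lower and 35.2% higher. Of genes at or above the median brightness 41.9% were lower and 32% higher. The mean of the neuroendocrine markers per array was 11.24 to 11.27 with PIK75 against 11.57 to 11.59 in the control. Of the 12 other markers 7 were higher and 0 lower by limma (9 and 0 at an unadjusted p under 0.05), with array means of 7.28 to 7.39 against 7.12 to 7.16. The part of either set of markers in the results was not tested, and fewer cells of a kind and less RNA per cell cannot be told apart here.

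The partners of the recombinase moved in opposite directions. RAD51AP1, which binds the recombinase and helps it pair strands, showed the largest fall of all 32 genes. Its log2 value was 10.92, 10.83 and 11.17 on the control arrays, 9.24, 9.05 and 9.15 with PIK75 and 10.96, 10.99 and 11.04 with TGX221. The PIK75 arrays thus lay well under the other 6, which overlapped. The fall was 3.54-fold (log2 difference -1.83, SE 0.082, adjusted p = 4.83e-09 by limma). The 250 bases before its start (chr12:4538640-4538889, plus strand, GRCh38.p14, from RefSeq) are shown because RAD51AP1 had the largest change, and the capitals mark a CCAAT box on the reverse strand.

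RAD51AP1: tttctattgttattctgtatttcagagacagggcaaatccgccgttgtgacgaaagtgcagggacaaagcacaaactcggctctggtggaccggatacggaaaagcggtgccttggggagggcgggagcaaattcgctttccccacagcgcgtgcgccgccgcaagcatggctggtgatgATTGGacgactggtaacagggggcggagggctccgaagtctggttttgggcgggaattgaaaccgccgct

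RAD54B, a translocase that remodels recombination intermediates, fell as well (log2 -0.41, SE 0.0738, adjusted p = 0.000474). Its relative RAD54L went the other way. RAD54L read 9.18, 9.22 and 9.24 in the control and 9.57, 9.57 and 9.56 with PIK75, while TGX221 gave 9.19, 9.08 and 9.27. The 3 PIK75 values were the tightest of any repair gene under that compound (SD 0.008) and lay above the other arrays, 1.28-fold over the control (log2 0.35, SE 0.0564, adjusted p = 0.000192). RAD52, which anneals complementary strands, read 8.99, 8.94 and 8.85 in the control, 9.14, 9.20 and 9.11 with PIK75 and 9.07, 9.003 and 9.13 with TGX221. Every PIK75 and TGX221 value was above the control values, and the treated groups overlapped. RAD52 rose by 0.22 with PIK75 (SE 0.0573, adjusted p = 0.00524), and all 3 of its other probe sets rose too (log2 0.47, 0.24 and 0.36). Relative to the hybridization spikes the difference of RAD54L was 0.0028 (adjusted p = 0.976, range over alternatives 4.63e-05 to 0.976) and that of RAD52 -0.13 (adjusted p = 0.135, range 0.000131 to 0.26), so neither rise held on that scale. RAD52 also missed the test relative to the poly-A spikes (0.14, adjusted p = 0.26).

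**Figure D2:**
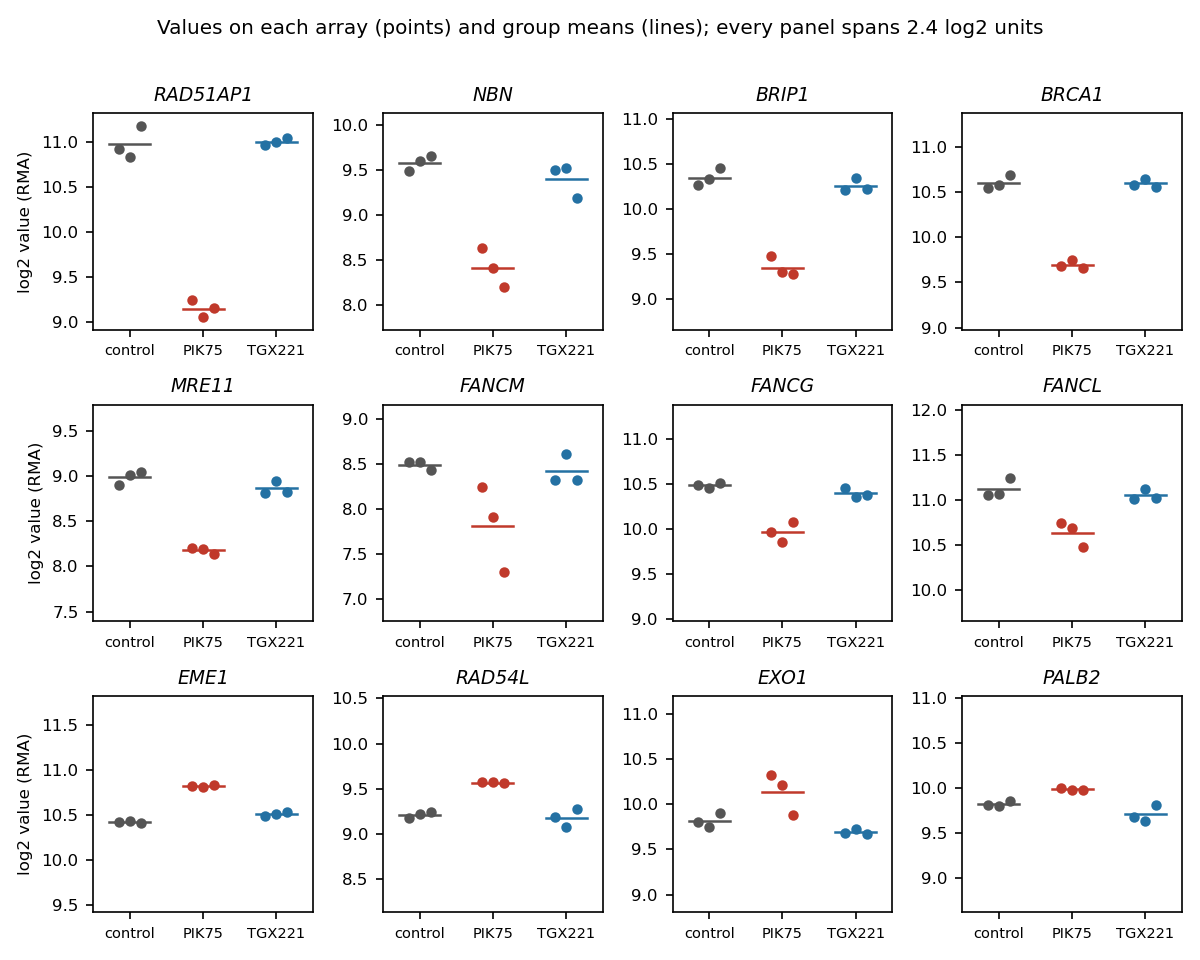
Log2 value on each array (points) and group mean (lines) for 12 repair genes in control, PIK75 and TGX221, 3 arrays per group, with the same span of log2 units in every panel. In the first 8 panels the PIK75 points lie below the control points, FANCM is spread widest, and in the last row only EXO1 has a PIK75 point within the control range.

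Among BRCA1 and its partners, 3 genes fell and 1 rose, where 25.2% of all genes were lower and 35.2% higher. Of genes at or above the median brightness 41.9% were lower and 32% higher. BRCA1, a ubiquitin ligase that steers breaks into recombination, read 10.54, 10.58 and 10.69 in the control, 9.69, 9.75 and 9.66 with PIK75 and 10.58, 10.65 and 10.56 with TGX221. The PIK75 arrays did not overlap the others, and BRCA1 was 1.87-fold lower than in the control (log2 -0.91, SE 0.0564, adjusted p = 5.59e-08). Its second probe set, gave a smaller fall (log2 -0.42, adjusted p = 0.000169). BARD1, which forms the ligase together with BRCA1, read 9.08, 9.07 and 8.99 in the control, 8.77, 8.64 and 8.57 with PIK75 and 8.93, 9.04 and 9.08 with TGX221. The PIK75 arrays lay below the other 6, which overlapped. BARD1 was 1.31-fold lower with PIK75 (log2 -0.39, SE 0.0632, adjusted p = 0.00024), and both of its other probe sets fell (log2 -0.56 and -0.28).

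BRIP1, a helicase that binds BRCA1 and also belongs to the Fanconi pathway, read 10.27, 10.33 and 10.45 in the control, 9.48, 9.30 and 9.28 with PIK75 and 10.21, 10.35 and 10.23 with TGX221. Here too the PIK75 arrays stood apart from the other 6. The fall was 2.00-fold (log2 -0.999, SE 0.0701, adjusted p = 1.51e-07), with log2 -1.10 in its second probe set. The bases before its start (chr17:61863529-61863778, minus strand, GRCh38.p14) are shown because they held more of the motifs searched than those of RAD51AP1, MRE11 and BRCA1. Each gene was taken at its listed start, and other starts were not examined. The capitals mark, from the left, a CHR element (TTTGAA on the reverse strand) and 3 CCAAT boxes, also on the reverse strand.

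BRIP1: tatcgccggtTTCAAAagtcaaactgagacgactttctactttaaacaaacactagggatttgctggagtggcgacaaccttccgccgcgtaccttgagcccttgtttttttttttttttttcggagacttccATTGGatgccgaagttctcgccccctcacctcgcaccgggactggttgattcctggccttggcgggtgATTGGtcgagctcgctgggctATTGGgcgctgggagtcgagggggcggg

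PALB2, the scaffold that links BRCA1 to the mediators, was the exception in this set. It read 9.81, 9.80 and 9.85 in the control, 10.00, 9.98 and 9.98 with PIK75 and 9.68, 9.64 and 9.81 with TGX221. The PIK75 values were the highest of the 3 groups, by 1.12-fold over the control (log2 0.17, SE 0.0547, adjusted p = 0.0207). This small rise turned to -0.19 relative to the hybridization spikes (adjusted p = 0.0307) and missed the test relative to the poly-A spikes (0.084, adjusted p = 0.55) and without control replicate 1 or 3 (adjusted p = 0.0562 and 0.0581), over a range of 0.00109 to 0.55.

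Of 6 genes that open and trim the broken ends, 4 were lower and 1 higher with PIK75. Among all genes 25.2% were lower and 35.2% higher, and 41.9% and 32% of those at or above the median brightness. The complex of MRE11, RAD50 and NBN binds a break first. NBN, which ties the complex to damage signalling, read 9.48, 9.59 and 9.65 in the control, 8.63, 8.40 and 8.20 with PIK75 and 9.50, 9.51 and 9.19 with TGX221. All PIK75 values were under the rest, and 1 TGX221 array, replicate 5, was below the control range. NBN was 2.24-fold lower with PIK75 (log2 -1.16, SE 0.107, adjusted p = 1.71e-06), and 3 of its 4 other probe sets fell by a like amount (log2 -1.12 to -1.28), while the dimmest gave 0.14 (adjusted p = 0.068). MRE11, the nuclease of the complex, read 8.90, 9.02 and 9.05 in the control, 8.21, 8.19 and 8.14 with PIK75 and 8.82, 8.95 and 8.83 with TGX221. The PIK75 arrays lay within 0.1 of each other and far below both other groups, 1.75-fold under the control (log2 -0.81, SE 0.0588, adjusted p = 2.02e-07). Of its other probe sets one fell (-0.90) and the dimmest rose (0.23, adjusted p = 0.0381). Its start region (chr11:94493845-94494094, minus strand, GRCh38.p14) is shown because ANKRD49, whose start lies in it on the opposite strand, did not fall, and the capitals mark CCAAT boxes, the first on the reverse strand.

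MRE11: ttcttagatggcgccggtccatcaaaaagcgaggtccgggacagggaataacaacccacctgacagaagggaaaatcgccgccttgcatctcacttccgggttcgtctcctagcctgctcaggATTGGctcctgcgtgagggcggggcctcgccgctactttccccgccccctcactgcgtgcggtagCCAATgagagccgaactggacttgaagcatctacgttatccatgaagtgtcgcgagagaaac

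RAD50, the arm of the complex, had a small difference. It read 9.68, 9.66 and 9.66 in the control, 9.54, 9.61 and 9.46 with PIK75 and 9.57, 9.62 and 9.58 with TGX221. Its log2 difference of -0.13 passed narrowly (SE 0.0523, adjusted p = 0.0495) and missed the test in most other settings, among them array medians (adjusted p = 0.0625), cyclic loess (0.597) and each array left out in turn except PIK75 replicate 3, over a range of 2.25e-06 to 0.597. The control values lay above those of both compounds, which overlapped. One dimmer probe set of RAD50 fell (log2 -0.54, adjusted p = 5.8e-05) and another gave 0.0034 (adjusted p = 0.963).

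WRN, a helicase with nuclease activity, fell by 0.34 on the log2 scale (adjusted p = 0.0011), and BLM, the helicase that dissolves joined molecules, did not pass (log2 0.029, 95% interval -0.094 to 0.15). BLM was lower relative to the hybridization spikes (-0.32, adjusted p = 0.000799, range 0.000799 to 0.891). EXO1, the exonuclease that lengthens the trimmed strand, read 9.80, 9.75 and 9.91 in the control, 10.33, 10.21 and 9.88 with PIK75 and 9.68, 9.72 and 9.67 with TGX221. PIK75 replicate 5 fell inside the control range, and the other PIK75 arrays were above it. EXO1 rose by 0.32 (SE 0.0941, adjusted p = 0.0115) and by 0.45 without that array, but the difference was -0.032 relative to the hybridization spikes (adjusted p = 0.771, range 0.000154 to 0.771).

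The 5 recombinase paralogs, which form small complexes that stabilise the loaded strand, formed the group with no call. By limma 0 of 5 passed, and 1 of 5 had an unadjusted p under 0.05, against 60.4% and 65.2% of all genes. Their log2 differences with PIK75 ran from -0.19 in RAD51B to 0.12 in XRCC3. RAD51C had a difference of -0.032 with a 95% interval of -0.14 to 0.081, RAD51D 0.035 (-0.10 to 0.17) and XRCC2 -0.018 (-0.15 to 0.12). The mean of the 2 probe sets of RAD51C was lower (-0.13, adjusted p = 0.0485, range 0.000106 to 0.814). XRCC3, which has 1 probe set, passed higher without PIK75 replicate 1 (adjusted p = 0.0362) and, at the same difference, where other genes were given the mean of their probe sets (0.0387), over a range of 0.00896 to 0.776. The values of RAD51D were 7.98, 8.08 and 8.08 in the control, 8.06, 8.03 and 8.16 with PIK75 and 8.14, 7.97 and 8.03 with TGX221, with all groups overlapping, and its dimmer probe set fell (log2 -0.19, adjusted p = 0.0419). RAD51B read 6.59, 6.96 and 6.64 in the control, 6.54, 6.57 and 6.53 with PIK75 and 6.78, 6.93 and 6.77 with TGX221. The second control array is the highest of the 9 for this gene, which is below the median brightness. RAD51B passed lower relative to the poly-A spikes (adjusted p = 0.0202), with cyclic loess (0.00835) and without control replicate 1 (0.0303), over a range of 1.67e-06 to 0.415, while of its other probe sets one rose (0.26) and one fell (-0.23). Relative to the hybridization spikes all 5 paralogs passed lower, as did 66.3% of all genes. Their differences ran from -0.23 in XRCC3 to -0.54 in RAD51B, with -0.32 in RAD51D.

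In the Fanconi core complex and its partner enzyme, 6 of 8 genes fell and 0 rose by limma (7 of 8 were lower at an unadjusted p under 0.05), where 25.2% of all genes, and 41.9% of those at or above the median brightness, were lower. FANCG, an adaptor of the core, read 10.49, 10.46 and 10.51 in the control, 9.97, 9.86 and 10.08 with PIK75 and 10.46, 10.36 and 10.38 with TGX221. It was 1.43-fold lower with PIK75, whose arrays did not overlap the others (log2 -0.52, SE 0.0617, adjusted p = 1.63e-05). FANCL, the ubiquitin ligase of the core, read 11.05, 11.06 and 11.24 in the control, 10.74, 10.69 and 10.47 with PIK75 and 11.01, 11.12 and 11.02 with TGX221. Again every PIK75 value was under the other 6, by 1.40-fold against the control (log2 -0.48, SE 0.0763, adjusted p = 0.000188). FANCM, the motor protein that anchors the core on DNA, read 8.53, 8.53 and 8.44 in the control, 8.25, 7.91 and 7.30 with PIK75 and 8.32, 8.62 and 8.32 with TGX221. Its PIK75 arrays had the widest spread of any repair gene (SD 0.48), with replicate 5 the lowest. FANCM was 1.60-fold lower (log2 -0.68, SE 0.175, adjusted p = 0.00564), and -0.42 without replicate 5 (adjusted p = 0.00755, range 3.63e-12 to 0.0211). Of its dimmer probe sets 1 fell (-0.22, adjusted p = 0.0227), and the others gave -0.20 and 0.07 and did not pass (adjusted p = 0.224 and 0.419). The mean of the 4 probe sets of FANCM was -0.26.

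Smaller falls were seen in FANCB, FANCC and FANCF, further subunits of the core. FANCC read 9.85, 9.87 and 9.81 in the control, 9.69, 9.62 and 9.63 with PIK75 and 9.72, 9.71 and 9.73 with TGX221. Both compounds left FANCC below the control range, with a log2 difference of -0.20 for PIK75 (adjusted p = 0.00364) and -0.12 for TGX221 (adjusted p = 0.202). The fall with PIK75 turned to 0.033 for the mean of its probe sets (adjusted p = 0.533, range 2.23e-07 to 0.533), where a dimmer one rose (0.18), and it missed the test with cyclic loess (-0.093, adjusted p = 0.122). FANCB, which is below the median brightness of all genes, read 6.47, 6.27 and 6.42 in the control, 6.27, 6.21 and 6.09 with PIK75 and 6.10, 6.32 and 6.13 with TGX221. The treated groups overlap each other, and the call (log2 -0.20, adjusted p = 0.0367) was lost without control replicate 1 or 5 or PIK75 replicate 3 or 5 and for the mean of its probe sets (adjusted p up to 0.13, range 2e-06 to 0.13). FANCF (log2 -0.21, adjusted p = 0.0231) likewise missed the test without control replicate 1 or 3 or PIK75 replicate 3 or 5 with cyclic loess and for the mean of its probe sets (range 1.03e-06 to 0.288). FANCE, which bridges the core to its clamp, gave -0.10 (adjusted p = 0.249) and passed lower without PIK75 replicate 5 (-0.18, adjusted p = 0.0419, range 2.18e-05 to 0.946). UBE2T, the ubiquitin-carrying enzyme that works with FANCL, gave -0.13 with PIK75 (adjusted p = 0.0578) and passed lower in several settings, such as among genes at or above the median brightness (adjusted p = 0.0408, range 7.08e-06 to 0.831). FANCI, the measured part of the clamp that receives the ubiquitin, fell by 0.20 (adjusted p = 0.00536), more so in its other probe sets (log2 -0.43 and -0.55), but not with cyclic loess (-0.066, adjusted p = 0.322, range 4.14e-07 to 0.322).

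The nucleases that cut joined or crosslinked DNA split. EME1 and MUS81 encode the subunits of 1 enzyme, and they moved apart. EME1 read 10.42, 10.43 and 10.41 in the control, 10.82, 10.81 and 10.83 with PIK75 and 10.49, 10.51 and 10.53 with TGX221. The 3 groups did not overlap, PIK75 was highest, and its difference from control was the largest rise of the 32 genes, 1.32-fold (log2 0.40, SE 0.0458, adjusted p = 1.2e-05). Relative to the hybridization spikes it was 0.048 (adjusted p = 0.565, range 1.41e-06 to 0.565). MUS81, the catalytic subunit, was lower (log2 -0.20, SE 0.0562, adjusted p = 0.00834), though not with cyclic loess (-0.094, adjusted p = 0.19, range 4.73e-07 to 0.19). SLX4, the scaffold for several nucleases, read 7.58, 7.55 and 7.46 in the control, 7.63, 7.46 and 7.47 with PIK75 and 7.45, 7.45 and 7.47 with TGX221, with all groups overlapping. SLX4 had a difference of -0.011 (95% interval -0.14 to 0.12, but -0.16 with cyclic loess, adjusted p = 0.0463, range 0.000201 to 0.996) and a second probe set that rose (0.16, adjusted p = 0.0289). FAN1, a nuclease drawn to the ubiquitin mark, had 0.011 in its brightest probe set (95% interval -0.17 to 0.19). Of its dimmer probe sets one rose (0.30, adjusted p = 0.00117) and the other gave -0.12 (adjusted p = 0.14). The start region of EME1 (chr17:50372979-50373228, plus strand, GRCh38.p14) is shown because the start of MRPL27, which moved the other way, lies in it. None of the E2F, CHR and CCAAT motifs searched lies in this window, so it holds no capitals.

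EME1: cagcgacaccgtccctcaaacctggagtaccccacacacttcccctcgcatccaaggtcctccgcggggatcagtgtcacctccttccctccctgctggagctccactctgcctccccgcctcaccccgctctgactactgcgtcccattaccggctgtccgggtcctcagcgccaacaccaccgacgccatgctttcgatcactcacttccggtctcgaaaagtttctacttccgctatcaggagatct

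Start regions were compared for the 28 of 32 genes that matched the RefSeq promoter table, at the listed start of each gene. The window ran from 250 bases before to 50 after that start, on both strands. A CCAAT box (CCAAT) was present in 11 of the 28, and in 34.6% of all 35116 promoters of that length. The E2F motif (TTTCCCGC, TTTGGCGC, TTTCGCGC or TTTGCCGC) was present in EXO1, XRCC2 and FANCC, 3 of 28 against 3.31% of all promoters. The CHR element (TTTGAA or TTCGAA) was in BRIP1, FANCC and UBE2T, 3 of 28 against 16.4%, and the NRF1 motif in SLX4, 1 of 28 against 1.24%. By direction, the CCAAT box was in 6 of 13 matched genes that fell, 2 of 5 that rose and 3 of 10 that were not called. A match is a string of letters in the window and does not show binding.

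Of the repair genes, 11 have a neighbour on the opposite strand whose start lies within 1000 bp, and 8 of those neighbours are measured. Of the 8, 3 were lower, 2 higher and 3 not called with PIK75, where 25.2% of all genes were lower and 35.2% higher. RAD51AP1 fell by 1.83, while FERRY3, an endosomal adaptor that starts 421 bp away, had a log2 difference of -0.21 (adjusted p = 0.0222). MRE11 fell by 0.81, and ANKRD49, an ankyrin repeat gene 140 bp away, rose by 0.28 (adjusted p = 0.0124), though not without control replicate 1 (adjusted p = 0.0534), on the poly-A spike scale (0.20, adjusted p = 0.0978) or on that of the hybridization spikes (-0.07, adjusted p = 0.474), with a range of 0.000677 to 0.474. EME1 rose by 0.40, and MRPL27, a mitochondrial ribosomal protein gene 45 bp away, fell by 0.57 (adjusted p = 4e-06). BRCA1 fell by 0.91, and NBR1, an autophagy receptor gene listed 82 bp away, had a difference of -0.12 that did not pass (adjusted p = 0.114). For BRCA1 the listed start follows chr17:43170328-43170577 (minus strand, GRCh38.p14). Other starts of BRCA1 were not examined, so the pair with NBR1 holds for that start only. PALB2 and DCTN5, a dynactin subunit gene 156 bp away, both rose (log2 0.17 and 0.35), where DCTN5 gave -0.0019 relative to the hybridization spikes (adjusted p = 0.983) and 0.07 for the mean of its probe sets (adjusted p = 0.206), with a range of 2.06e-05 to 0.983. FANCB and MOSPD2 both fell slightly (log2 -0.20 and -0.25), and MOSPD2 missed the test without control replicate 3 or 5 or PIK75 replicate 3 or 5 (adjusted p = 0.0915, 0.0647, 0.0514 and 0.0746). FERRY3 missed the test without control replicate 5 or PIK75 replicate 3 or 5 (adjusted p = 0.0963, 0.0602 and 0.0614) and with cyclic loess (adjusted p = 0.262, the highest over its alternatives, the lowest being 1.58e-06).

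**Figure D3:**
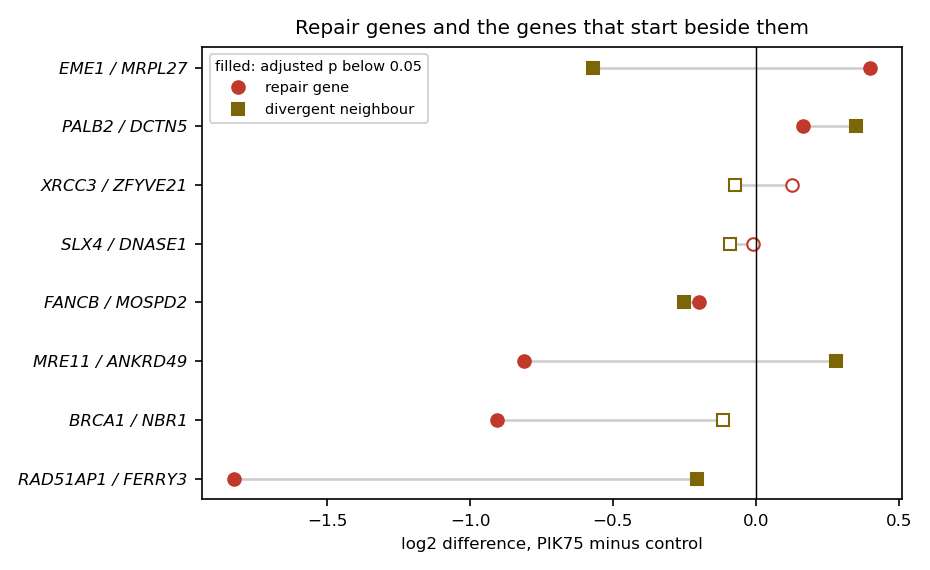
Log2 difference between PIK75 and control of 8 repair genes (red circles) and of the measured gene that starts beside each on the opposite strand (brown squares), filled where the adjusted p was below 0.05. RAD51AP1, BRCA1 and MRE11 lie far to the left of their neighbours, and EME1 and MRPL27 lie on opposite sides of 0. Neighbours are those of the listed start of each repair gene.

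The genes that fell spanned more DNA on the whole. The median genomic span was 84 kb for the 17 that fell, 38.1 kb for the 5 that rose and 30.9 kb for the 10 not called, in the RefSeq table of GRCh38.p14. The Spearman correlation between span and log2 difference was -0.29 over the 32 genes and -0.22 over the 19738 genes with a span, a description across genes that share arrays and are not independent. With TGX221, where none of the 32 passed, it was -0.35 over the 32 genes, a comparison that shares its control arrays. RAD51AP1, at 21.2 kb, and FANCG, at 6.1 kb, are short genes among those that fell, and RAD51B, at 863.3 kb, is by far the longest and was not called.

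Of the 32 genes 18 have more than 1 probe set, which gives 35 further readings. With PIK75 16 of these were lower and 10 higher (adjusted over all 41091 probe sets, of which 23.5% were lower and 30.2% higher). In 6 genes, MRE11, RAD51B, RAD51D, FANCB, FANCC and SLX4, another probe set passed the test in the direction opposite to the value of the brightest. All probe sets of BRCA1, BARD1, BRIP1 and FANCI fell, and all those of RAD52 and EME1 rose.

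**Figure D4:**
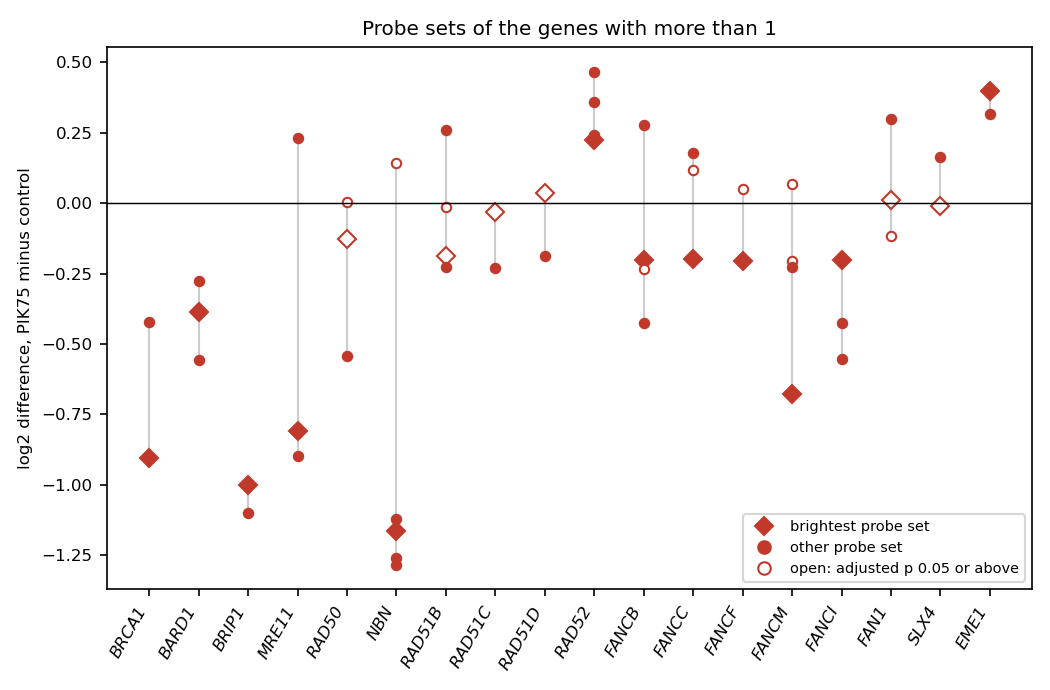
Log2 difference between PIK75 and control of every probe set of the 18 genes with more than 1, the brightest as a diamond and the others as circles, filled where the adjusted p over all 41091 probe sets was below 0.05. BRIP1 and 4 of the 5 probe sets of NBN lie near or below -1, while those of MRE11 and FANCB lie on both sides of 0.

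With TGX221, differences of the repair genes from the control were small in the brightest probe sets. By limma 0 of 32 passed, with 8 (5 higher, 3 lower) at an unadjusted p under 0.05, or 25% against 18.3% of all genes. The log2 differences ran from -0.20 in FANCB to 0.20 in FANCE, with a median of -0.05. Among the 35 other probe sets of these genes 0 passed, where 1.21% of all genes did by their brightest probe set. The differences of the 35 reached 0.36 in RAD52 (adjusted p = 0.0546) and -0.36 in FANCM (adjusted p = 0.211). The farthest bound of any of the 32 95% intervals was 0.45 from 0, in FANCM. For the strongest falls with PIK75 the intervals with TGX221 were -0.15 to 0.20 for RAD51AP1, -0.13 to 0.12 for BRCA1, -0.24 to 0.063 for BRIP1, -0.25 to 0.0065 for MRE11 and -0.41 to 0.058 for NBN. The smallest adjusted p was that of XRCC3, a recombinase paralog (log2 0.17, adjusted p = 0.127). Its values were 6.88, 6.91 and 6.97 in the control and 7.07, 7.10 and 7.10 with TGX221, which do not overlap. The same holds for FANCE, which read 9.48, 9.64 and 9.63 in the control and 9.74, 9.81 and 9.83 with TGX221 (log2 0.20, adjusted p = 0.182). In all, the TGX221 values of 6 of the 32 genes lay above all control values and those of 5 below them. Of all 19775 genes, 2284 and 2445 did.

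Set directly against TGX221, at doses that differ, PIK75 gave 17 lower and 4 higher repair genes (22.3% and 25.1% of all genes, 47.4% in either direction). Of these, FANCE, UBE2T, RAD51B and XRCC2 had not passed against the control. In UBE2T the values were 12.04, 11.97 and 12.04 in the control, 11.88, 11.86 and 11.92 with PIK75 and 12.25, 12.09 and 12.19 with TGX221, so the treated groups lie on either side of the control. The difference between them was -0.29 (SE 0.0547, adjusted p = 0.000866). FANCE differed by -0.31 (adjusted p = 0.00512). EXO1, at 0.45 (adjusted p = 0.00191), had the largest difference upwards. RAD50, FANCB, FANCC, FANCF and RAD52 passed against the control but not against TGX221, with differences from -0.076 in FANCC to 0.083 in RAD52. For FANCB the difference between the compounds was 0.0049 with a 95% interval of -0.16 to 0.17.

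Other genes of the same pathways were more often lower than higher with PIK75. Of 53 measured genes of a wider list of 56, 25 were lower and 14 higher with PIK75 (47.2% and 26.4%, against 25.2% and 35.2% of all genes). Of the 42 at or above the median brightness, 21 were lower and 11 higher, where 41.9% and 32% of all genes this bright were. The 53 genes had a median log2 difference of -0.11, and 0 passed with TGX221 by limma (15 at an unadjusted p under 0.05, or 28.3% against 18.3% of all genes). The falls with the smallest p were in RMI2, a subunit of the complex around BLM (log2 -0.96, adjusted p = 3.68e-08), DNA2, a nuclease that trims ends alongside EXO1 (log2 -1.24, adjusted p = 5e-08), FIGNL1, which takes the recombinase off DNA (log2 -0.96, adjusted p = 5.23e-08), and SMARCAD1, a chromatin remodeller at breaks (log2 -0.92, adjusted p = 1.21e-07). The rises with the smallest p were in FEN1, the flap endonuclease of DNA replication (log2 0.52, adjusted p = 8.01e-06), UIMC1, which recruits a BRCA1 complex to ubiquitin marks (log2 0.51, adjusted p = 1.04e-05), CENPX, a partner of FANCM (log2 0.38, adjusted p = 0.0002), and PSMC3IP, a recombinase accessory factor (log2 0.32, adjusted p = 0.000331). None of these 4 rises passed relative to the hybridization spikes, where their values were 0.17, 0.16, 0.03 and -0.03. Without control replicate 5 the number of the 53 genes that were higher with PIK75 was 9, where 28.3% of all genes were.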

How the data were processed

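Total RNA of 9 H69 samples was hybridised to Affymetrix arrays of 54675 probe sets. The deposited values are log2 expression values made with RMA, per the submitters' processing notes, whose version is not given in the sources used here. RMA subtracts background, makes the arrays alike in distribution and summarises the probes. The values were used as deposited. Each gene was represented by the brightest of its single-symbol probe sets over all arrays (41091 probe sets, 19775 genes), and 1801 probe sets with several symbols were left out. All 3 groups were fitted together in limma 3.58.1 (R 4.3.3), without the replicate number, and p-values were adjusted by Benjamini-Hochberg over all genes at 0.05. The fit was tested on simulated data. Values on every array are given for the 10 genes with the smallest p, all that were higher, and those whose probe sets passed in opposite directions, and values of a few others were added after they were seen. Neighbour, motif and span comparisons use RefSeq tables of GRCh38.p14. The genes and lists were chosen with earlier results of these data known. Alternatives covered scaling, probe sets, genes below the median brightness, spread, threshold, the replicate number as a block and each array left out. The number of arrays limits the precision.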

Additional observations from a re-analysis of the deposited data

How the results depend on the processing

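Of the 17 repair genes lower with PIK75, 11 kept their call in every setting they were run in: BRCA1, BARD1, BRIP1, MRE11, NBN, RAD51AP1, RAD54B, FANCG, FANCL and FANCM in 20, and WRN in 19, since it is below the median brightness. In the same settings none of the 5 higher genes did. The number lower against the control was 28 relative to the hybridization spikes, where 66.3% of all genes were. The number higher was 0 there (1.95% of all genes), 3 relative to the poly-A spikes (12.5%) and 3 at an adjusted p below 0.01 (22.3%). Against TGX221, 28 were lower and 0 higher relative to the hybridization spikes (60.2% and 3.17% of all genes). Relative to the poly-A spikes 2 were higher than with TGX221 (4.96% of all genes). The median difference of the repair genes was -0.54 relative to the hybridization spikes and -0.09 with cyclic loess against the control, and -0.47 and -0.33 against TGX221 relative to the hybridization and poly-A spikes. Of the genes called with PIK75, 41.7% were lower on the deposited scale, 67.4% relative to the poly-A spikes, 97.1% relative to the hybridization spikes, 53.8% with cyclic loess and 56.7% without genes below the median brightness. Relative to the hybridization spikes the difference from control was -0.19 for PALB2, -0.032 for EXO1, -0.32 for BLM, -0.32 for RAD51D, -0.23 for XRCC3, -0.13 for RAD52, -0.34 for FAN1, -0.072 for ANKRD49, -0.0019 for DCTN5 and -0.030 for PSMC3IP, all of which were above 0 as deposited. On the same scale the difference from TGX221 was -0.0083 for PALB2, -0.18 for BLM, -0.25 for RAD51D, -0.20 for RAD52, -0.28 for FANCB, -0.25 for FAN1 and -0.22 for SLX4. FANCC was 0.033 for the mean of its probe sets. The cause was not tested.

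Of the 53 other pathway genes, 41 were lower than control relative to the hybridization spikes (66.3% of all genes). By limma 0 were higher there (1 at an unadjusted p under 0.05), against 1.95% of all genes. Relative to the poly-A spikes 6 were higher (12.5% of all genes), and at an adjusted p below 0.01, 7 (22.3%). Against TGX221, 5 were higher relative to the poly-A spikes (4.96% of all genes), 4 relative to the hybridization spikes (3.17%) and 8 with the replicate block (19%). Between TGX221 and control 5 passed relative to the hybridization spikes, where 0.41% of all genes were higher and 2.79% lower. There was 1 each relative to the poly-A spikes, with cyclic loess, without genes below the median brightness and with a trended and robust spread. In those settings 0.657% to 2.35% of the genes tested were higher and 0.223% to 0.799% lower. With 1 array left out, 15 to 17 repair genes were lower and 4 to 6 higher than control, 13 to 16 lower and 4 higher than with TGX221, and 0 differed between TGX221 and control. For the other pathway genes these ranges were 24 to 26 lower and 9 to 14 higher than control, 23 to 26 lower and 9 to 14 higher than with TGX221, and 0 to 2 between TGX221 and control, where 1 passed without PIK75 replicate 5 and 2 without TGX221 replicate 3. Over all genes 23.5% to 25.2% were lower and 28.3% to 35.1% higher than control. Against TGX221, 20.5% to 22.2% of all genes were lower and 18.7% to 24.5% higher. Between TGX221 and control up to 1.95% were higher and 1.6% lower.

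With the replicate number as a block, 16 repair genes were lower and 5 higher than control (24.6% and 33.1% of all genes). Deviations of control and PIK75 arrays of the same number correlated at -0.134, 0.122 and -0.046, so the numbers are not shown to pair the samples.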
